A study of Mus musculus with 6 samples.

Results

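The genes encoding SNARE proteins were examined one by one in mGLUTag cells, an immortalized mouse line of the enteroendocrine L-cell that secretes glucagon-like peptide-1 (GLP-1). A list of 37 SNARE genes was matched to the probes of a whole-genome mouse Illumina BeadChip by gene symbol, in upper case (STX1A, VAMP2, SNAP25 and so on; mouse spelling is used from here). Of the 37, 35 had a probe, and 74 of the 45281 probes of the array belonged to them. The members were placed in 4 groups, each named for a membrane on which SNAREs work. These held 8 at the plasma membrane, 5 on granules, 12 on endosomes and 12 in the endoplasmic reticulum (ER) and Golgi. A member can also work on other membranes. The granule group holds Vamp2 with its relatives Vamp1, Vamp3, Vamp5 and Vamp8, which are not all best known from hormone granules. Every culture spent a period in low serum, was synchronized with forskolin, which raises cAMP, and was then given growth medium again. Total RNA was extracted 4 h (n = 3) or 16 h (n = 3) after synchronization, times picked by the study for the high and the low point of Arntl, the gene for the clock factor BMAL1, and each sample went onto its own array. Since all samples received forskolin, the labelled groups differ in time alone. That time is at once clock phase, time since forskolin and time since growth medium was given back. These cannot be told apart here. The line comes from a tumor of mice in which the proglucagon promoter drives large T antigen, so it models L-cells by dividing cells in culture. The sources used here do not state whether the 3 samples of a time point were separate cultures, so each p-value measures only the spread between these samples.

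SNARE proteins drive the fusion of a vesicle with its target membrane. A bundle of helices forms between an R-SNARE, usually on the vesicle, and Qa, Qb and Qc helices, usually on the target, where a SNAP-25 type protein can supply both Qb and Qc. In the release of peptide hormones the classic set is syntaxin-1A, SNAP-25 and VAMP2. Each of them has close paralogs that take the same position in other fusion steps. This raises the question of which paralogs L-cells transcribe and whether the transcript levels differ between the time points.

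The identity of the line was checked against fixed marker lists. A probe was called detected where its intensity lay above a noise limit on all 6 arrays, and that limit, estimated per array from the below-zero values, lay between 9.2 and 14 intensity units. Of 10 L-cell markers, 8 were detected in this way and the others, Pcsk1 and Pax6, on 1 and 4 arrays. Of the enterocyte markers 1 of 4 with a probe was detected, of the goblet or Paneth cell markers 1 of 4, of the fibroblast markers 1 of 5 and of the leukocyte markers 0 of 4. Each array had 16964 to 17847 probes above its limit, and the number of arrays, not a count of reads, limits the precision of what follows.

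BMAL1 binds E-box elements, and forskolin acts through cAMP response elements (CREs), so the promoters of the members were read for both. RefSeq promoter windows (GRCm38.p6, 250 bases before to 50 after a gene start) were given for 33 of the 37 members, 40 windows in all; Snap25, Vamp2, Vamp3 and Vamp7 were those without an entry. The E-box CACGTG, which reads the same on either strand, lay in 4 of the 40 windows (10%), against 7.15% of all 32851 windows of the table. The CRE TGACGTCA, also a palindrome, lay in 1 of 40 (2.5%), against 1.79% of all windows, and the promoter was that of Gosr2, at position -224 from the start. No member window held both motifs. E-boxes with other letters and sites further from the start were not searched. The study reported BMAL1 binding at E-boxes with other letters upstream of Scgn, at distances that such windows do not reach. The windows with the E-box are shown, with the motif in capitals, because the E-box is the element that BMAL1 binds, and that of Stx8 is shown beside them because its brightest probe has the smallest p of the expressed members. The E-box began at position -85 of Stx6 (chr1:155158453-155158752, plus strand), -163 of Vamp4 (chr1:162570265-162570564, plus strand), -41 of Bnip1 (chr17:26780829-26781128, plus strand) and -174 of Sec22c (chr9:121704980-121705279, minus strand). The Stx8 window (chr11:67966208-67966507, plus strand) held neither set of letters, which says only that they are not in this window.
Stx6: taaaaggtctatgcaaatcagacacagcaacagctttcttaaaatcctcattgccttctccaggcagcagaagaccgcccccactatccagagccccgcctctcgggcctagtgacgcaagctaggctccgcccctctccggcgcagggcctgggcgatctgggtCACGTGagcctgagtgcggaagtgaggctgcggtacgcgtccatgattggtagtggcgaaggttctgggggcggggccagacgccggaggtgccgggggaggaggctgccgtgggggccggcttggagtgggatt
Vamp4: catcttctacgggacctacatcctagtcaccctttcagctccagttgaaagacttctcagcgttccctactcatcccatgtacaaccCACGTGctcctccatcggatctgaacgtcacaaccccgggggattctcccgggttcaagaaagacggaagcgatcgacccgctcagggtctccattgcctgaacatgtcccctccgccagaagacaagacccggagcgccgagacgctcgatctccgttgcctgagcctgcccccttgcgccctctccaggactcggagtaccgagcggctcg
Bnip1: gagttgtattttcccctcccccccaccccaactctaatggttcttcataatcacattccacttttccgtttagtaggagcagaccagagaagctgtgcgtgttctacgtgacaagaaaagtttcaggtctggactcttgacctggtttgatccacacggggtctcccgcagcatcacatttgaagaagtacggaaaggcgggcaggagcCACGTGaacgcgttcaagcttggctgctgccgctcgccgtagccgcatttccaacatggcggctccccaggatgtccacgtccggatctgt
Sec22c: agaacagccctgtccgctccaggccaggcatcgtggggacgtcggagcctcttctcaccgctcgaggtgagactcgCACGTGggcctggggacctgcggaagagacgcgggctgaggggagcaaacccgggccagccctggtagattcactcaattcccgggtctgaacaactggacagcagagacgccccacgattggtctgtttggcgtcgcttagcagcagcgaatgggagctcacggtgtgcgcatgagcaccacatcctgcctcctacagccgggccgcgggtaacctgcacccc
Stx8: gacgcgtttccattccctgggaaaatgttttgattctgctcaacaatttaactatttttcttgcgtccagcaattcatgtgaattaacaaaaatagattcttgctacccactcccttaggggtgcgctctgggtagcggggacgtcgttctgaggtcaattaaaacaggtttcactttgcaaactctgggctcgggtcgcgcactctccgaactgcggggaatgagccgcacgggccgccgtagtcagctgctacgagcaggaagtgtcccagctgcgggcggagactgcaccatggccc

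Most SNARE genes were detected in both time points. Of the 35 members with a probe, 30 had at least 1 probe above the noise limit on all 6 arrays and are called expressed, 3 had no probe above it on any array and are called silent, and Stx19 and Vamp1 lay above it on some arrays. Counted by probe, 48 of the 74 lay above the limit on all arrays, 14 on some and 12 on none. Over all probes of the array, 33.0% lay above the limit on all arrays and 53.8% on none. The genes Snap47 and Vamp7 had no probe under these symbols. Under older names, the probe listed as 1110031B06Rik (Snap47) and 1 of the 2 listed as Sybl1 (Vamp7) lay above the limit on all arrays, which brings the count to 32 of 37. A probe under the limit shows only that its own signal was not told from noise, and a gene represented by a few probes may have transcripts that they do not reach.

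**Figure D1:**
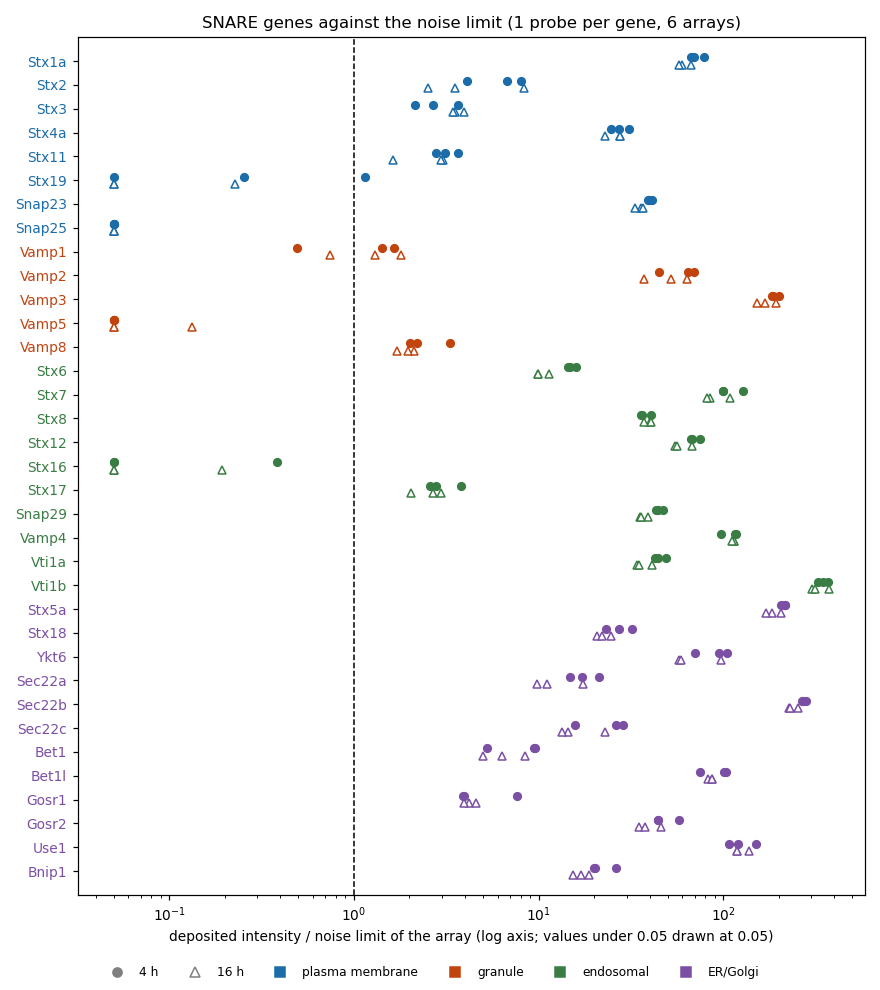
Deposited intensity of the brightest probe of each SNARE gene, divided by the noise limit of the array (log axis), with filled circles for the 3 arrays at 4 h, open triangles for the 3 at 16 h and colours for the membrane group; ratios under 0.05, negative ones included, are drawn at 0.05. The dashed line is the limit: 30 genes lie to its right on all 6 arrays, Stx19 and Vamp1 straddle it, and Snap25, Vamp5 and Stx16 lie to its left.

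At the plasma membrane, 6 of 8 members were expressed. Among the Qa-SNAREs these were Stx1a, the syntaxin of regulated hormone and transmitter release, and its paralogs Stx2, Stx3, Stx4a and Stx11. Stx19, a syntaxin without a transmembrane anchor, lay above the limit on 1 array. The SNAP-25 paralogs differed in detection. The 2 probes of Snap25 gave -1.0, -5.7 and -4.7 units at 4 h with -7.4, -6.6 and -1.5 at 16 h, and -9.1, -7.0 and 0.1 with -7.3, -0.7 and -6.1. All 12 values lay under the noise limit. Snap23, the widely expressed relative of SNAP-25, gave 547, 474 and 484 units at 4 h and 353, 351 and 336 at 16 h, on all arrays far above it. A further probe of Snap23 lay under the limit on every array, so a probe under the limit occurred also for a gene that its other probe detects. The study itself lists Snap25 among the SNARE transcripts expressed in mGLUTag cells, and it precipitated SNAP25 protein from them. For Snap25, silent therefore describes these 2 probes and does not mean that the line lacks the gene product.

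In the granule group, 3 of 5 members were expressed. These were Vamp2, the R-SNARE of the classic set, Vamp3 (cellubrevin), its widely expressed relative, and Vamp8 (endobrevin). The last is an R-SNARE of late endosomes and of exocrine granules. Vamp1, the closest paralog of Vamp2, had 4 probes, of which the brightest gave 6.9, 16.5 and 20.1 units at 4 h and 7.3, 13.7 and 16.6 at 16 h. It passed the limit on 4 arrays, and its other 3 probes did so on 1 or 2. Vamp5, best known from muscle, was silent by both of its probes, which lay between -7.4 and 3.6 units.

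On endosomes, 9 of 12 members were expressed by symbol: the Qa-SNAREs Stx7, Stx12 and Stx17, the Qb-SNAREs Vti1a and Vti1b, the Qc-SNAREs Stx6 and Stx8, the SNAP-25 relative Snap29 and the R-SNARE Vamp4. Stx16, the Qa-SNARE with which Stx6, Vti1a and Vamp4 act in transport to the trans-Golgi network, was silent by its only probe, which gave 5.4, -13.1 and -2.9 units at 4 h and 1.9, -1.2 and -2.9 at 16 h. Under its older name the brighter of the 2 probes for Vamp7, an R-SNARE of late endosomes and lysosomes, gave 1449, 964 and 1057 units at 4 h and 992, 701 and 778 at 16 h. That for Snap47 gave 119, 78.8 and 116 units at 4 h and 102, 65.6 and 64.8 at 16 h. Every array lay above its limit for both of these probes, and the other Vamp7 probe lay under it on all 6 arrays.

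In the ER and Golgi all 12 members were expressed. They include Stx5a, the Qa-SNARE of transport from ER to Golgi, with its partners Gosr1, Gosr2, Bet1, Bet1l, Ykt6 and Sec22b. Stx18, Use1 and Bnip1 form the set for the return to the ER. Sec22a and Sec22c resemble Sec22b but lack its SNARE motif. Sorted by position in the bundle, 10 of 12 Qa, 5 of 5 Qb, 5 of 5 Qc, 2 of 4 Qbc and 6 of 9 R members were expressed by symbol, and 2 of 2 of the SEC22-like members. The Qbc and R totals include Snap47 and Vamp7, which had no probe by symbol and were detected under older names. The members silent or on some arrays only were thus Qa, Qbc or R types, while every Qb and Qc member was expressed.

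Before any normalization between arrays, nearly every member was brighter at 4 h, as was nearly every other probe. The mean intensity over all probes was 354, 291 and 322 units on the 4 h arrays and 246, 245 and 216 on the 16 h arrays. Of the 30 expressed members, 29 had a higher mean deposited intensity at 4 h, against 98.2% of the 14941 probes detected on all arrays, and 20 did so with no overlap between time points, against 49.2%. The median log2 ratio of 4 h over 16 h was 0.60 for the members and 0.55 for all detected probes. By group it was 0.55 at the plasma membrane, 0.59 on granules, 0.60 on endosomes and 0.64 in the ER and Golgi. In a bulk sample more cells, more RNA per cell and a brighter array cannot be told apart in such a shared shift.

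**Figure D2:**
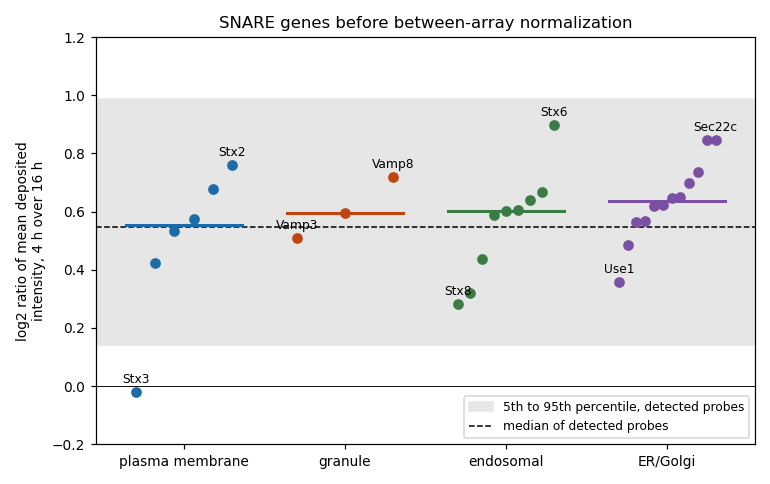
Log2 ratio of mean deposited intensity, 4 h over 16 h, for each expressed SNARE gene (points, 1 probe per gene) by membrane group, with the median of the group as a bar. The dashed line is the median of all detected probes at 0.55 and the grey band their 5th to 95th percentile, from 0.14 to 0.99; Stx3 is the only gene outside the band.

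The extremes of this ratio were Stx3 and Stx6. Stx3, a plasma membrane syntaxin known for delivery to the apical surface of epithelia, gave 37.5, 42.2 and 26.1 units at 4 h and 34.7, 36.2 and 36.4 at 16 h, a log2 ratio of -0.02. Stx6, a Qc-SNARE of the trans-Golgi network and endosomes that is also found on immature granules, gave 207, 168 and 195 units at 4 h and 97.8, 104 and 104 at 16 h, a log2 ratio of 0.90. The Stx6 values of the time points were far apart, and those of Stx3 overlapped in full, on arrays whose overall brightness differed by time point.

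All further comparisons were made after quantile normalization, so that each value is relative to the other probes of its array, on the log2 scale. No SNARE probe differed between 4 h and 16 h by limma at an adjusted p of 0.05, where 0.00883% of all 45281 probes (4 probes) did. The smallest adjusted p of any of the 74 probes was 0.718. At an unadjusted p under 0.05, 2 of the 74 probes were higher at 4 h and 4 were lower. Of the 48 SNARE probes detected on all arrays, 1 was higher (2.08%) and 4 were lower (8.33%), together 10.4%, against 5.74%, 5.18% and 10.9% of all detected probes, so that their share was near the background. The 4 lower ones were 3 probes of Stx8 and 1 of Vamp4. Among the brightest probes of the 30 expressed genes, 1 was higher and 1 lower. For 27 of 30 genes the 95% confidence interval of the change lay within 0.5 on either side of 0, against 84.9% of the detected probes, and the exceptions were Ykt6, Sec22a and Sec22c. This bound rests on the offset of 50 in the background correction, which shrinks the changes of dim probes: with an offset of 16 it held for 21 of 30 genes (63.7% of detected probes), and with no background correction for 15 of 30 (31.1%).

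The changes of the 30 genes, 4 h minus 16 h, ran from -0.24 to 0.22 with a median of 0.06, beside 0.0014 over all detected probes. Of them 21 lay above 0, against 50.4% of detected probes. The groups had medians of 0.0038 (plasma membrane, 3 genes above and 3 below 0), 0.06 (granules, 3 and 0), 0.06 (endosomes, 6 and 3) and 0.08 (ER and Golgi, 9 and 3). The granule median was the value of Vamp8, whose probe is dim. With Vamp7 and Snap47 added under their older names, at -0.03 and -0.08, the endosomal median was 0.01. By position in the bundle the median was 0.06 for Qa, 0.09 for Qb, -0.06 for Qc, 0.03 for Qbc and 0.06 for R members. These leave out Snap47 (Qbc) and Vamp7 (R), and the Qbc median rests on 2 genes. The medians depend on the scaling: where each array was only scaled to its median, the group medians lay between 0.31 and 0.46 and the median of all detected probes moved to 0.30 with them. They also depend on single arrays. Without 4 h replicate 1 the granule median was 0.0076, and without 16 h replicate 1 the plasma membrane median was -0.062.

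**Figure D3:**
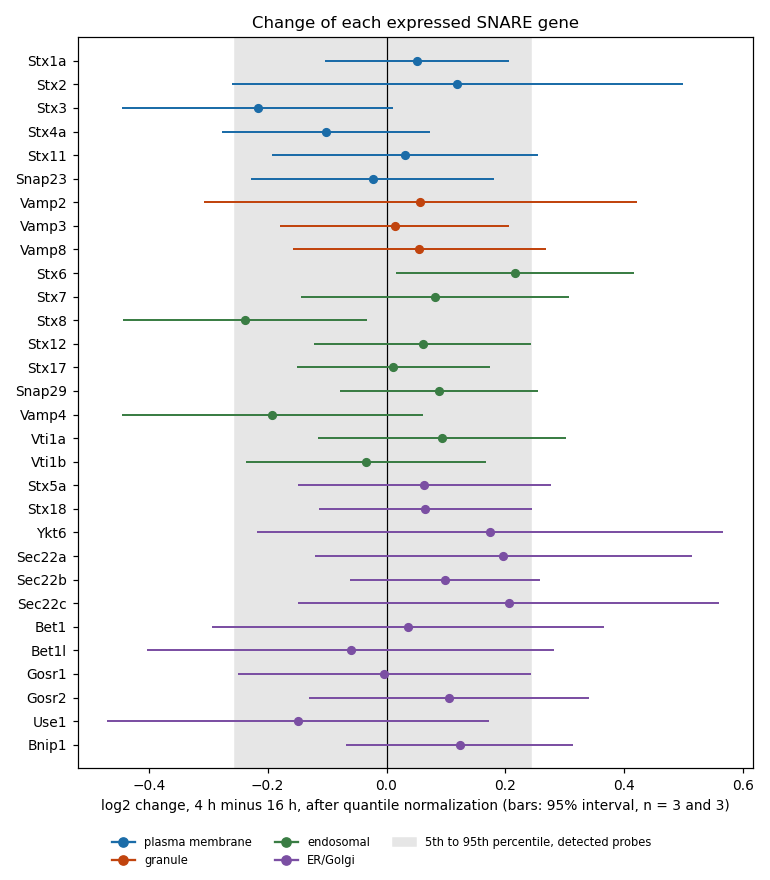
Log2 change between 4 h and 16 h of each expressed SNARE gene after quantile normalization (points) with its 95% interval from limma (bars, n = 3 and 3), coloured by membrane group; the grey band is the 5th to 95th percentile of the change of all detected probes. The intervals of Stx6, above 0, and Stx8, below 0, are the only ones that do not cross 0.

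Of the classic set, Stx1a and Vamp2 were expressed. Neither these nor Snap23, the paralog of Snap25, gave a difference beyond the spread of the arrays. On the log2 scale, Stx1a measured 9.70, 9.68 and 9.70 at 4 h and 9.56, 9.71 and 9.66 at 16 h. Time points overlapped and the change was 0.05 ± 0.07 (SE), with a 95% interval from -0.10 to 0.20 (limma, adjusted p = 0.972). Vamp2 measured 9.70, 9.16 and 9.43 at 4 h and 9.63, 9.40 and 9.09 at 16 h. Both time points spread over more than the difference between their means, the change was 0.06 ± 0.16 (SE), and the interval, from -0.31 to 0.42, bounds what could be detected (limma, adjusted p = 0.985). Snap23 measured 8.93, 9.03 and 8.79 at 4 h and 8.91, 8.85 and 9.08 at 16 h, again with overlap and a change of -0.02 ± 0.09 (SE; limma, adjusted p = 0.992).

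Among the other plasma membrane syntaxins the differences were small. Stx2, involved in epithelial secretion, measured 7.04, 6.81 and 7.13 at 4 h and 7.29, 6.74 and 6.59 at 16 h, and its 16 h values enclosed those at 4 h. Stx3 measured 6.47, 6.74 and 6.40 at 4 h and 6.68, 6.72 and 6.86 at 16 h. Its 4 h replicate 2 lay among the 16 h arrays and the other 4 h arrays under them, with a change of -0.22 ± 0.10 (SE) and an interval from -0.44 to 0.01 (limma, adjusted p = 0.919). With an offset of 16 the change was -0.33 and with no background correction -0.62. Its other 2 probes with signal on some arrays had changes of -0.07 and -0.11. Stx4a, the syntaxin of constitutive and insulin-regulated fusion, had 2 detected probes that went apart. The brighter gave 8.34, 8.56 and 8.49 at 4 h against 8.57, 8.61 and 8.52, a change of -0.10 ± 0.08 (SE), and the other 8.16, 8.39 and 8.07 against 7.99, 8.18 and 8.18, a change of 0.09 ± 0.10 (SE). The time points overlapped for both probes.

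Of the granule paralogs, Vamp3 measured 11.05, 11.02 and 11.05 at 4 h and 11.14, 10.86 and 11.07 at 16 h. All 4 h arrays lay within the range of the 16 h arrays, and the change was 0.01 ± 0.08 (SE; limma, adjusted p = 0.996). Its further detected probe had a change of -0.06 ± 0.07 (SE). Vamp8 measured 6.36, 6.69 and 6.40 at 4 h and 6.43, 6.39 and 6.47 at 16 h, with 1 high array at 4 h and a change of 0.06 ± 0.09 (SE). Vamp1 reached the limit on too few arrays for a change that could be read.

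**Figure D4:**
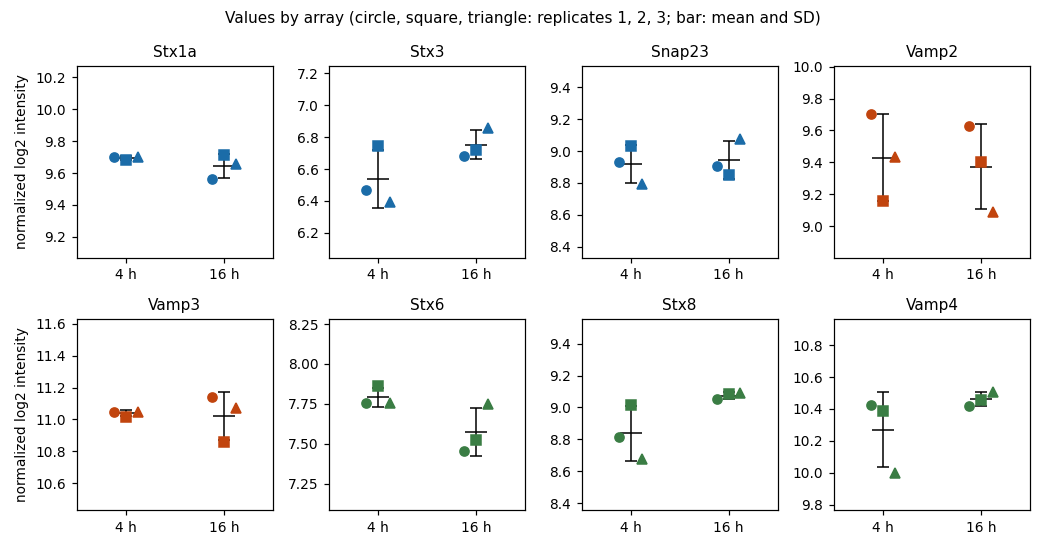
Normalized log2 intensity on each array for 8 SNARE genes (circle, square and triangle for replicates 1, 2 and 3; horizontal and vertical bars for mean and SD, n = 3), each panel spanning the same width in log2 units. Stx6 and Stx8 are the genes shown whose time points do not overlap, Stx6 by the narrow gap between 7.75 at 16 h and 7.76 at 4 h.

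By the brightest probe of each gene, the smallest p in either direction belonged to endosomal members, both of them Qc-SNAREs. Stx8, which pairs with Stx7, Vti1b and Vamp7 or Vamp8 in the fusion of late endosomes, measured 8.82, 9.02 and 8.68 at 4 h and 9.05, 9.08 and 9.09 at 16 h. Every 4 h array lay under every 16 h array, and the change was -0.24 ± 0.09 (SE), with an interval from -0.44 to -0.03 (limma, unadjusted p = 0.0268, adjusted p = 0.860). A change without overlap in this direction was found for 5.51% of the detected probes. Stx8 had 4 detected probes, and 2 of the further 3 gave the same picture: 8.72, 8.73 and 8.71 against 9.06, 8.92 and 8.87, a change of -0.23 ± 0.07 (SE), and 8.39, 8.67 and 8.56 against 8.73, 8.82 and 8.91, a change of -0.28 ± 0.09 (SE). Their time points did not overlap either. The dimmest of the 4 had a change of -0.04 ± 0.10 (SE). Probes of a gene share the RNA of the sample and are not replicates. The direction is relative to the other probes: the deposited Stx8 intensities were 503, 469 and 443 units at 4 h and 394, 428 and 341 at 16 h, so that the raw ratio was above 0 (log2 0.28) but under the 0.55 of the detected probes, and with median scaling alone the change was 0.17.

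Stx6 went the other way. It measured 7.76, 7.86 and 7.76 at 4 h and 7.46, 7.52 and 7.75 at 16 h, so that 16 h replicate 3 nearly touched the 4 h arrays and the other 16 h arrays lay clearly under them. The change was 0.22 ± 0.09 (SE), with an interval from 0.02 to 0.42 (limma, unadjusted p = 0.0362, adjusted p = 0.889), and 6.12% of detected probes were likewise higher with no overlap. A further Stx6 probe, above the limit on 4 arrays, had a change of 0.06 ± 0.10 (SE). Set against the median of the detected probes under median scaling, the change was 0.25 for Stx6 and -0.13 for Stx8.

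Vamp4, the R-SNARE of the trans-Golgi network that is retrieved from maturing granules, measured 10.42, 10.39 and 9.997 at 4 h and 10.42, 10.46 and 10.51 at 16 h. Its 4 h replicate 3 stood low and the others lay at the 16 h level, with a change of -0.19 ± 0.11 (SE; limma, adjusted p = 0.931). Without 4 h replicate 3 the change was -0.06. Its second detected probe measured 9.07, 9.01 and 8.86 against 9.22, 9.10 and 9.22. This probe did not overlap, with a change of -0.20 ± 0.08 (SE; limma, unadjusted p = 0.0304, adjusted p = 0.878). Of the 4 members with an E-box in a window, 3 had a change above 0, beside 21 of the 30 expressed members.

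For other endosomal members the probes disagreed or the 95% interval of the change included 0. Snap29, Stx7 and Stx12 had 1 probe each, with changes of 0.09 ± 0.07, 0.08 ± 0.10 and 0.06 ± 0.08 (SE). Stx17, the syntaxin of autophagosomes, had 2 dim probes, with 6.49, 6.56 and 6.64 at 4 h against 6.58, 6.58 and 6.49 on the first (a change of 0.01 ± 0.07, SE) and 6.41, 6.44 and 6.42 against 6.46, 6.58 and 6.49 on the other (-0.08 ± 0.07, SE). Vti1a, a Qb-SNARE of the trans-Golgi network and endosomes, measured 9.22, 9.09 and 8.94 at 4 h and 9.08, 8.87 and 9.02 at 16 h on its brightest probe, with overlap. The 4 detected probes of Vti1a had changes of 0.09, 0.04, 0.13 and -0.10, the last from the dimmest. Of the 12 members with 2 or more detected probes, 8 had them all in the same direction, and Stx4a, Vamp3, Stx17 and Vti1a did not. The brightest probe of Vti1b, the Qb-SNARE of late endosomes, had a change of -0.03 ± 0.09 (SE). A dim Vti1b probe gave the smallest p of the 74, at 67.3, 58.9 and 22.4 deposited units at 4 h and 8.3, 18.2 and 4.7 at 16 h, a change of 0.48 ± 0.15 (SE; limma, unadjusted p = 0.0106, adjusted p = 0.718). It lay above the limit on 4 arrays only, and the 2 bright probes of the gene did not share it.

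Of the 12 ER and Golgi members, 9 had a change above 0, and the 95% interval of each of the 12 included 0. Bnip1, a Qb-SNARE of the return path to the ER, measured 8.10, 8.23 and 8.29 at 4 h and 8.12, 7.96 and 8.17 at 16 h, with overlap and a change of 0.12 ± 0.08 (SE; limma, adjusted p = 0.948). Sec22a measured 8.16, 7.87 and 7.82 at 4 h and 8.04, 7.51 and 7.72 at 16 h, with a change of 0.20 ± 0.14 (SE; limma, adjusted p = 0.952). Sec22b, the R-SNARE between ER and Golgi, measured 11.63, 11.55 and 11.49 at 4 h and 11.51, 11.41 and 11.48 at 16 h. Its lowest 4 h value lay just under its highest 16 h value, and the change was 0.10 ± 0.07 (SE; limma, adjusted p = 0.953). The remaining 9 ran from -0.15 for Use1 to 0.21 for Sec22c, whose promoter window, like that of Bnip1, holds an E-box. The 4 detected probes of Gosr2, a Qb-SNARE of the Golgi, had changes of 0.11, 0.12, 0.23 and 0.05.

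The arrays also differed in their signal for 18S ribosomal RNA (Rn18s), across time points. The mean log2 intensity of the Rn18s probes was 8.50, 6.91 and 10.6 at 4 h and 9.24, 7.71 and 7.02 at 16 h, a spread without a clear gap, which was cut at its median into 3 arrays with more (4 h replicates 1 and 3, 16 h replicate 1) and 3 with less. Of 5 probes for Actb (beta-actin), 4 lay higher on each of these 3 arrays than on each of the others, although 2 of the 4 passed the noise limit on only 3 arrays. A probe of the 4 was at 8961, 7390 and 5353 deposited units, against 719, 1026 and 1064 on the others. The remaining Actb probe did not separate them, at 5448, 6607 and 3478 against 4465, 4849 and 3787. What these differences stand for is not given by the labels. With time in the model, 5 of the 30 members lay above the 90th percentile of detected probes (0.24) in the difference between these sets of arrays: Ykt6 at 0.49, Sec22c at 0.45, Stx2 at 0.45, Vamp2 at 0.40 and Sec22a at 0.27. Bet1l, at -0.23, lay under the 10th percentile (-0.22). Counted by probe, 9 of the 48 detected SNARE probes lay above the 90th and 2 under the 10th percentile. By construction 10% of all detected probes lie on each side of that band. With the cut as a block, the change of Vamp2 was -0.08 and that of Stx2 -0.03, and both had been above 0. The change of Ykt6 went from 0.17 to 0.012 with the block, that of Sec22c from 0.21 to 0.054 and that of Sec22a from 0.20 to 0.10, while that of Stx6 was 0.26 and that of Stx8 -0.19. The granule median turned to -0.022 and the plasma membrane median to -0.0076 with the block. By limma no member passed an adjusted p of 0.05 with this block. The part of the 18S signal in the spread of the single genes was not tested.

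**Figure D5:**
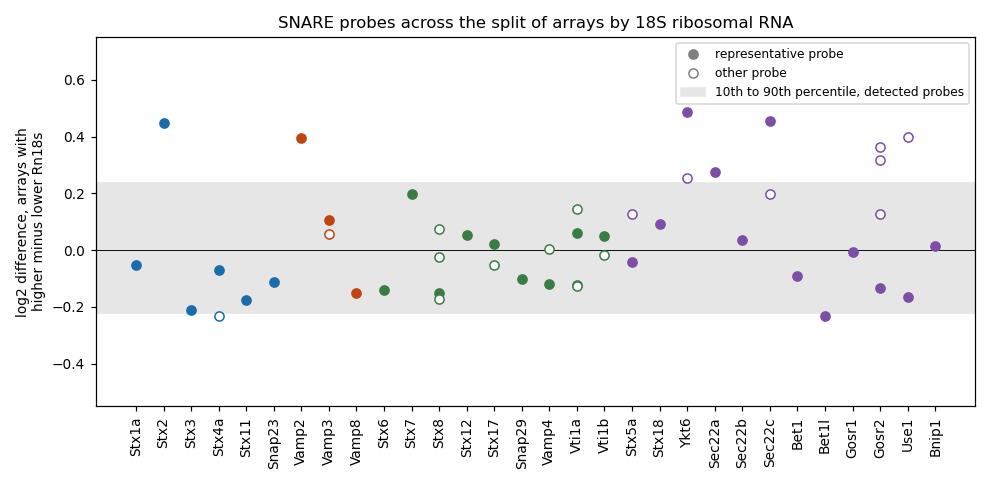
Log2 difference between the 3 arrays with higher and the 3 with lower 18S ribosomal RNA signal, adjusted for time point, for each detected SNARE probe (filled, brightest probe of the gene; open, other probes; colours by membrane group as in the other plots). The grey band is the 10th to 90th percentile of all detected probes; Ykt6, Sec22c, Stx2, Vamp2 and Sec22a have their brightest probe above it and Bet1l has its probe just under it.

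The same membranes need partners that are not SNAREs. A list of 29 symbols of SM proteins (which clasp the SNARE bundle), of NSF and its adaptors (which take it apart) and of priming and clamping factors (which ready or hold a docked vesicle) was read alongside. Of these, 18 were detected on all arrays, 3 on some and 8 on none, counted by symbol as the array lists them; Stxbp3, on some, and Stxbp3a, on none, may name the same gene. By limma 0 passed an adjusted p of 0.05, and none of the 18 had an unadjusted p under 0.05, against the background of 10.9%. Their median change was -0.0012. It was 0.08 over 6 SM proteins, 0.04 over 4 disassembly factors and -0.05 over 8 priming and clamping factors. Among the brightest probes of these 18 genes, the smallest p-values belonged to Unc13a, a priming factor of docked vesicles, with a change of -0.28 ± 0.13 (SE; limma, adjusted p = 0.919), Vps33b, an SM protein of late endosomes, with 0.20 ± 0.09 (SE; limma, adjusted p = 0.919), and Vps45, the SM protein that binds Stx16, with -0.18 ± 0.09 (SE; limma, adjusted p = 0.920).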

How the data were processed

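Total RNA of 6 samples was hybridized to 1 Illumina BeadChip array each. The deposited table gives each probe a linear intensity per array, background-subtracted (values below 0 occur), without normalization between arrays or detection p-values. Scanner software, slide and build are not given in the sources used here. The authors' methods name limma. Groups follow the labelled time point.

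Intensities were corrected with normexp (offset 50), which shrinks changes of dim probes, quantile normalized and transformed to log2 in R 4.3.3 with limma 3.58.1. Models were fitted to all 45281 probes on time point alone, with two-sided p-values adjusted by Benjamini-Hochberg (threshold 0.05). No exact permutation test was run, since at this size its two-sided p cannot go below 0.1. To set the noise limit, the values of an array below 0 were turned in sign and their 99th percentile taken. The brightest probe (mean normalized log2 intensity) stood for its gene, and levels were not compared between probes.

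The members, their groups, the partner and marker lists and the tests were chosen with earlier results of these data known. Values per array were given by rule for Stx1a, Vamp2, Snap25 and their nearest paralogs, for the 3 expressed members with the smallest p in each group, for members with an unadjusted p under 0.05 and for members whose detected probes differ in direction. Other values named were chosen after they had been seen. Alternatives were an offset of 16, no background correction (with a floor of 1), median scaling, cyclic loess, no between-array normalization, linear scaling on detected probes by the trimmed mean (10% from each end), the replicate number as a block, array weights, a robust variance trend, a filter on 3 or more arrays above the limit, the mean of the probes of a gene, other noise limits and leaving out each array. The 18S separation as a block and the compartment medians with members under older names were chosen after seeing the data. The procedure was tested on simulated data. Promoter sequences and present gene names come from RefSeq tables (GRCm38.p6).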

Additional observations from a re-analysis of the deposited data

How the results depend on the processing

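The count of SNARE probes passing limma at an adjusted p of 0.05 was 0 with quantile normalization and under all but 2 alternatives. It was 6 of 74 with median scaling, where 1.84% of all probes passed. With no between-array normalization it was 10 of 74, where 5.10% of all probes passed. These backgrounds are not matched: 53.8% of all probes, but only 12 of the 74 SNARE probes, never rose over the noise limit. The share passing among detected probes was not counted, so no excess of SNARE probes or genes can be read from these settings. At an unadjusted p under 0.05 the 2 higher and 4 lower probes became 29 and 0 with median scaling, 41 and 0 with no between-array normalization, and 0 to 7 and 0 to 6 elsewhere. Under these 2 settings the median of detected probes moved to 0.30 and 0.39, and the group medians to 0.31 and 0.40 (plasma membrane), 0.41 and 0.50 (granules), 0.46 and 0.55 (endosomes) and 0.46 and 0.55 (ER and Golgi). The settings differ by a constant that is the same for all probes, and relative to the detected probes 23 of 30 members had the sign of the quantile-normalized change. Of the others, Snap23 (0.078), Vti1b (0.042) and Bet1l (0.051) lay above the median of detected probes. Stx11 (-0.11), Vamp8 (-0.14), Stx17 (-0.14) and Bet1 (-0.008) lay below that median. The shift lifts all probes, and changes that were below 0 turned above it: Stx4a 0.28 and 0.37, Snap23 0.38 and 0.47, Stx8 0.17 and 0.26, Vamp4 0.21 and 0.30, Vti1b 0.34 and 0.43, Bet1l 0.35 and 0.44, Gosr1 0.22 and 0.31, Use1 0.25 and 0.34, and, without normalization, Stx3 0.036. By limma 5 members then passed with median scaling (Snap23, Stx6, Snap29, Stx5a and Sec22b, adjusted p from 0.0309 to 0.0494), and 9 with no between-array normalization (these with Vamp3, Stx12, Vti1a and Bnip1, 0.0309 to 0.0474). Other signs turned with linear scaling (Vamp3 -0.024, Gosr1 0.0064), with the mean of the probes of a gene (Vamp3 -0.022, Stx17 -0.036, Vti1b 0.13) and with the 18S block (Stx2 -0.030, Snap23 0.015, Vamp2 -0.075, Vamp3 and with it the granule median -0.022, Bet1l 0.017). The plasma membrane median was -0.0076 with the 18S block and -0.0077 with array weights, and the endosomal median 0.015 with the 18S block. The causes of these were not tested. Leaving out an array gave 0 called probes, 30 expressed genes, medians from -0.062 to 0.027 (plasma membrane, below 0 without 4 h replicate 2 or 16 h replicate 1 or 2), 0.0076 to 0.072 (granules), 0.021 to 0.048 (endosomes) and 0.031 to 0.11 (ER and Golgi), and a raw log2 ratio from 0.51 to 0.70. It turned the sign of 13 genes: Stx2 (-0.021 to 0.33), Stx11 (-0.082 to 0.097), Snap23 (-0.080 to 0.043), Vamp2 (-0.084 to 0.19), Vamp3 (-0.070 to 0.072), Vamp8 (-0.047 to 0.11), Stx12 (-0.010 to 0.11), Stx17 (-0.025 to 0.048), Vti1b (-0.087 to 0.038), Bet1 (-0.10 to 0.20), Bet1l (-0.16 to 0.14), Gosr1 (-0.12 to 0.087) and Use1 (-0.30 to 0.011). It did not turn that of Stx1a, Stx3, Stx6, Stx8 or Vamp4. Expressed genes numbered 29 to 32 over the other noise limits and older names. Between samples of the same replicate number the correlations of deviations were 0.25, 0.17 and -0.49. With 3 samples per group these cannot settle whether the numbers pair the samples. With the replicate block 0 probes were called, and the group medians stood at 0.0038, 0.06, 0.06 and 0.08. An unadjusted p under 0.05 was found by limma with this block for 4 probes higher at 4 h and 5 lower. Dim probes near the limit, such as those of Stx3, Vamp8 and Stx17, carry little signal over background, and the change of Stx3 was -0.33 with an offset of 16 and -0.62 with no background correction.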
